A study of Mus musculus with 6 samples.

Results

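Genes of prostaglandin synthesis, reception and breakdown were followed in cells sorted as pericytes from mouse muscle. The set was given as a list of symbols: the cyclooxygenases Ptgs1 and Ptgs2, the terminal synthases Ptges, Ptgis and Ptgds, the receptors Ptger2 and Ptger4 and the degrading enzyme Hpgd. All 8 symbols matched 1 row each of the 53715 genes in the deposited gene table. RNA came from the gastrocnemius-soleus muscles of wild-type male C57BL/6J mice aged 14 weeks. In 3 stimulated mice the lower leg muscles were driven electrically through 40 contractions (20 eccentric and 20 concentric) in about 10 minutes, and tissue was taken 3 hours later. In 3 sham mice the muscles were not stimulated. The sort kept cells positive for CD146 and negative for CD45, found on leukocytes, and CD31, found on endothelium. The libraries held 18204991 to 23709220 estimated reads after stimulation and 17520338 to 21825118 in sham mice.

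Prostaglandins are short-lived lipid signals made from arachidonic acid, which phospholipases free from membranes. The cyclooxygenases convert it to PGH2, terminal synthases turn PGH2 into individual prostaglandins, and these act on G protein-coupled receptors of nearby cells until uptake and oxidation end the signal. In muscle and its vessels PGE2 and prostacyclin are known as dilators and as mediators of inflammation and repair, and Ptgs2 is the cyclooxygenase that many stimuli induce.

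The libraries did not hold RNA of pericyte genes alone. The summed level of 12 endothelial markers was 1810 to 2740 counts per 1000000 (CPM) in stimulated and 3020 to 7680 CPM in sham libraries. That of 10 pericyte markers was lower, at 185 to 427 CPM and 338 to 700 CPM. These sums are not per length and come from lists of unequal size, so they do not compare amounts of the cell types. All 12 endothelial markers were lower after stimulation, and all 11 tested neutrophil markers were higher. Of the sorted cell type's own list 9 of 10 markers were lower, with a median log2 fold change of -0.78, as were all 7 smooth muscle markers. All 12 lymphocyte, all 8 myofibre and all 5 tested satellite cell markers were higher, with overlapping sums. The 12 neutrophil markers of the list summed to 139 to 233 CPM in stimulated and 47.2 to 67.4 CPM in sham libraries. No marker of these lists was at 0 in every library, and Ly6g was the neutrophil marker under 1 CPM throughout. Sham replicate 2 stood apart, with 251 CPM over 12 lymphocyte markers against 1470 to 2300 CPM in the other 5 libraries, and with the highest endothelial sum. In such bulk samples fewer cells of a type and less RNA per cell cannot be told apart. The part of these markers in the results below was not tested.

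**Figure D1:**
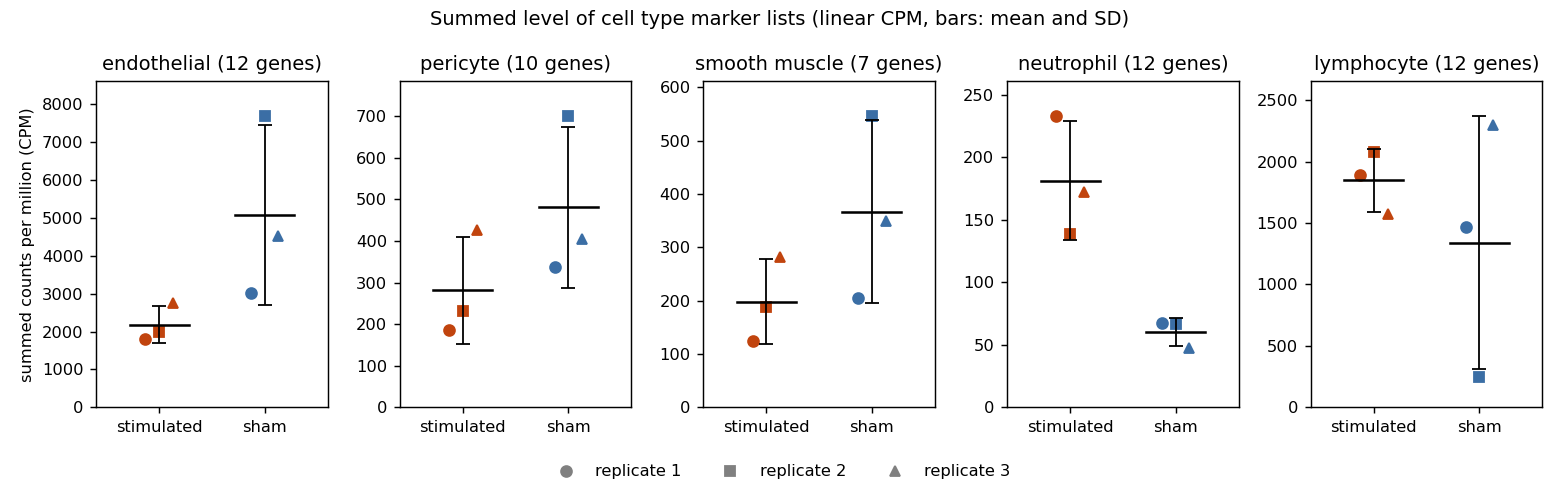
Summed CPM (linear axis) of 5 marker lists in 3 stimulated and 3 sham libraries; symbols are replicates, bars the mean and SD. The endothelial sum was 1810 to 2740 CPM in stimulated and 3020 to 7680 CPM in sham libraries, and the neutrophil sum 139 to 233 CPM and 47.2 to 67.4 CPM.

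The comparison asks how these genes differ 3 hours after stimulation. Hpgd, the breakdown enzyme, stood lower in every stimulated library than in any sham library, at 0.26 times the sham mean, and the receptor gene Ptger2 stood higher in every stimulated library. The groups overlapped for Ptgs2, the inducible cyclooxygenase, and for Ptger4, and the 95% intervals of both differences included 0. No member passed the quasi-likelihood test of edgeR at a Benjamini-Hochberg adjusted p of 0.05, which called 0% of the 26559 genes tested. At an unadjusted p under 0.05, 2 of the 7 tested members remained, 1 of them higher and 1 lower, where 2.64% of all tested genes were called higher and 4.41% lower by that measure. The groups did not overlap in 2 of 7 members, against 12% of all tested genes. DESeq2, run as an alternative, called 1 member, Hpgd. It called 0.279% of the 26559 tested genes higher and 0.576% lower, shares that include 6724 genes to which it gave no adjusted p.

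**Figure D2:**
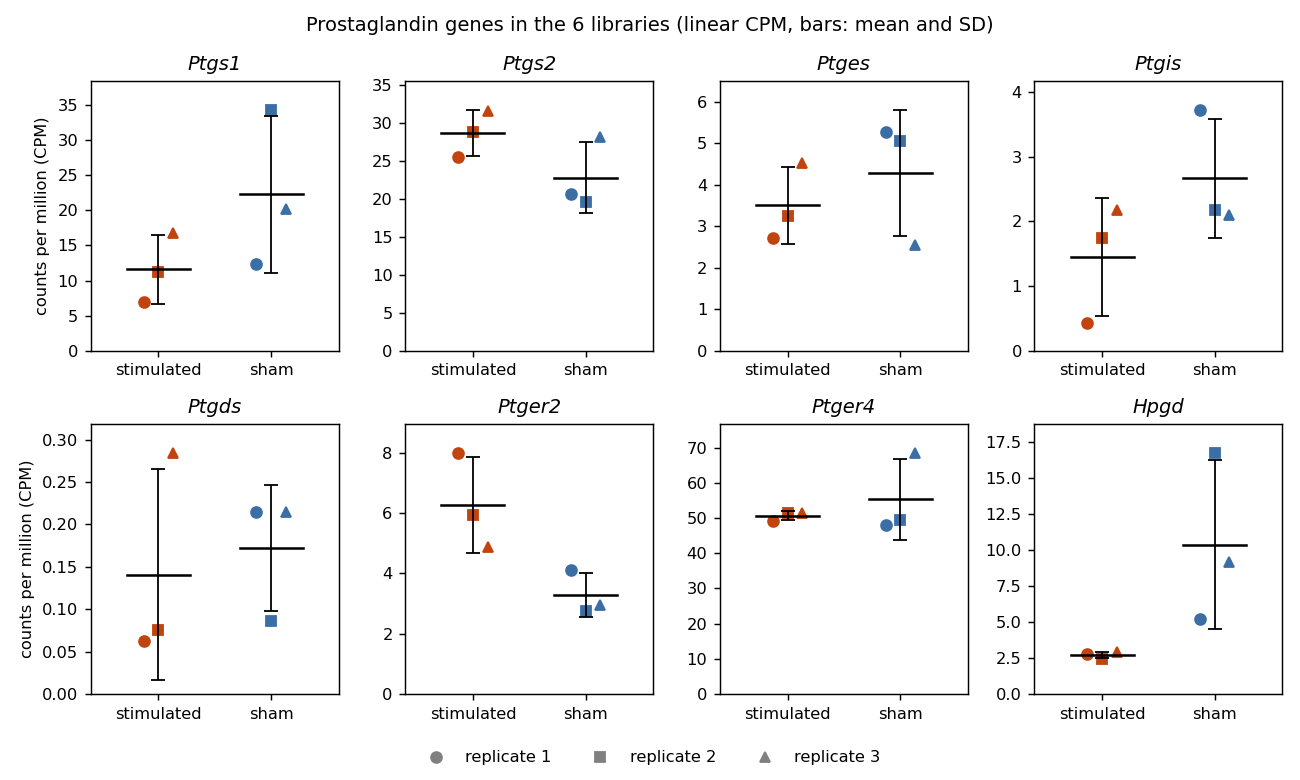
CPM (linear axis from 0) of the 8 members in 3 stimulated and 3 sham libraries; symbols are replicates, bars the mean and SD. Hpgd sits at 2.44 to 2.91 CPM after stimulation, below all sham libraries at 5.2 to 16.7 CPM, and Ptger2 at 4.86 to 7.98 CPM, above all sham libraries at 2.75 to 4.1 CPM.

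Levels of the members were set side by side only per length, as transcripts per 1000000 (TPM), summed over all transcripts of a gene, coding or not. In these total RNA libraries transcripts shorter than 200 bases took 88.26 to 91.5% of all TPM, so the TPM of the members is small throughout. Ptger4 had the highest mean TPM, 0.701 ± 0.0542 in stimulated and 0.971 ± 0.171 in sham libraries (SD, n = 3 each), and Ptgds the lowest. In the stimulated libraries the order of summed TPM was Ptger4, Ptgs2, Ptgs1, Hpgd, Ptger2, Ptges, Ptgis and Ptgds in all 3 replicates. There the neighbours Ptges and Ptgis, and Ptgis and Ptgds, had overlapping ranges of TPM. On coding transcripts 2 of these orders turned. The coding transcript of Ptgs1 had 0.075, 0.04 and 0.038 TPM in stimulated replicates 1 to 3, below Hpgd at 0.174, 0.128 and 0.173. That of Ptger2 had 0.033, 0.024 and 0.02 TPM, below that of Ptges at 0.041, 0.029 and 0.029. In stimulated replicate 2 a 358-base transcript gave Ptgs2 0.188 of its 0.496 TPM from 2.8% of its reads. In the sham libraries the ranges of the 4 highest genes, Ptger4, Hpgd, Ptgs1 and Ptgs2, overlapped from one to the next, as did those of Ptges, Ptgis and Ptger2. Hpgd was the highest of the 8 in sham replicate 2, at 1.64 TPM, rank 3 in the other sham libraries and rank 4 in every stimulated library.

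Ptgs2 encodes COX-2 (ENSMUSG00000032487.8, chromosome 1, 150100031 to 150108227, GRCm38). It had 25.5, 28.8 and 31.6 CPM in stimulated replicates 1 to 3 and 20.6, 19.6 and 28.1 CPM in sham replicates 1 to 3. In these gene values sham replicate 3 lay within the stimulated range, and the other sham libraries lay below it. The log2 fold change was 0.33 (SE 0.25, 95% interval -0.22 to 0.89, edgeR adjusted p = 0.9). On these gene values it was 0.53 (SE 0.26, edgeR adjusted p = 0.47) without sham replicate 3. The deposited gene values follow TPM rather than read sums. From reads summed over the gene's transcripts the log2 fold change was 0.48 (SE 0.23, edgeR unadjusted p = 0.066 and adjusted p = 0.71). Both annotated transcripts are coding, so the fit on protein-coding transcripts only removed reads of other genes but none of Ptgs2. That fit, also on read sums, gave 0.55 (SE 0.23, edgeR unadjusted p = 0.039 and adjusted p = 0.52). Those sums were 592, 430 and 738 reads in stimulated libraries and 504, 370 and 354 in sham libraries, of which 96.4 to 99.8% lay on the 4453-base coding transcript. The neighbour Ptgs2os, which is annotated on the other strand and begins head to head with Ptgs2 across a gap of 67 bases, stood at 0.392 to 1.11 CPM in stimulated and 0.0441 to 1.29 CPM in sham libraries.

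Ptgs1 encodes COX-1, the cyclooxygenase present in many resting cells and in platelets (ENSMUSG00000047250.13, chromosome 2, 36230426 to 36252272). It had 6.88, 11.2 and 16.7 CPM in stimulated libraries and 12.3, 34.3 and 20.2 CPM in sham libraries. Stimulated replicate 3 lay above sham replicate 1, so the groups overlapped, and sham replicate 2 was the highest. The log2 fold change was -0.94 (SE 0.44, 95% interval -1.93 to 0.05, edgeR adjusted p = 0.72). It was -0.48 without sham replicate 2, -0.62 without stimulated replicate 1 and -1.30 without stimulated replicate 3. From reads summed over the gene's transcripts it was -1.01 (SE 0.37, edgeR unadjusted p = 0.022 and adjusted p = 0.59). Endothelial markers were lower in stimulated libraries too, at 1810 to 2740 CPM against 3020 to 7680 CPM in sham libraries, as were most pericyte and all smooth muscle markers, and their part was not tested. Platelet marker sums overlapped, at 24.6 to 35.8 CPM after stimulation and 20.6 to 55.7 CPM in sham libraries. Of 6 tested platelet markers 5 were lower, and their part was not tested either.

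Of the 5 annotated transcripts of Ptgs1, 1 differed most between the groups in reads per 1000000 of the library (RPM). That transcript, Ptgs1-204, which GENCODE classes as a processed transcript, opens with an exon of its own inside the intron between exons 2 and 3 of the coding transcript (chromosome 2, 36236249 to 36236365) and then shares the exons of the coding transcript Ptgs1-201. The junctions into the first shared exon show the difference; the lower-case bases are the preceding exon and the capitals the exon that both transcripts share, read from the GENCODE M21 transcripts (GRCm38, plus strand).
Ptgs1-201: gggtgccctcaccagTCAATCCCTGTTGTT
Ptgs1-204: agaaagagagtggcaTCAATCCCTGTTGTT
Salmon, named in the submitters' processing notes, assigned Ptgs1-204 4.09 ± 2.06 RPM in stimulated and 13.2 ± 8.59 in sham libraries (SD, n = 3 each). Its share of the gene's reads was 33, 33 and 52.4% in stimulated libraries and 72.7, 67.6 and 47.6% in sham libraries, so sham replicate 3 fell within the stimulated range. The coding transcript Ptgs1-201 held 3.74 ± 1.46 and 3.91 ± 2.23 RPM (SD, n = 3 each). When the fit across all genes was restricted to reads of protein-coding transcripts, the log2 fold change of Ptgs1 was 0.03 (SE 0.52). From reads of all its transcripts it was -1.01 (SE 0.37). The restriction was an alternative added after the data were examined. Only 117 of the 2711 31-base words of Ptgs1-204 and 147 of the 2837 of Ptgs1-201 are absent from the gene's other transcripts. The split between these transcripts thus rests on a small part of their length, and reads in shared exons could belong to either.

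**Figure D3:**
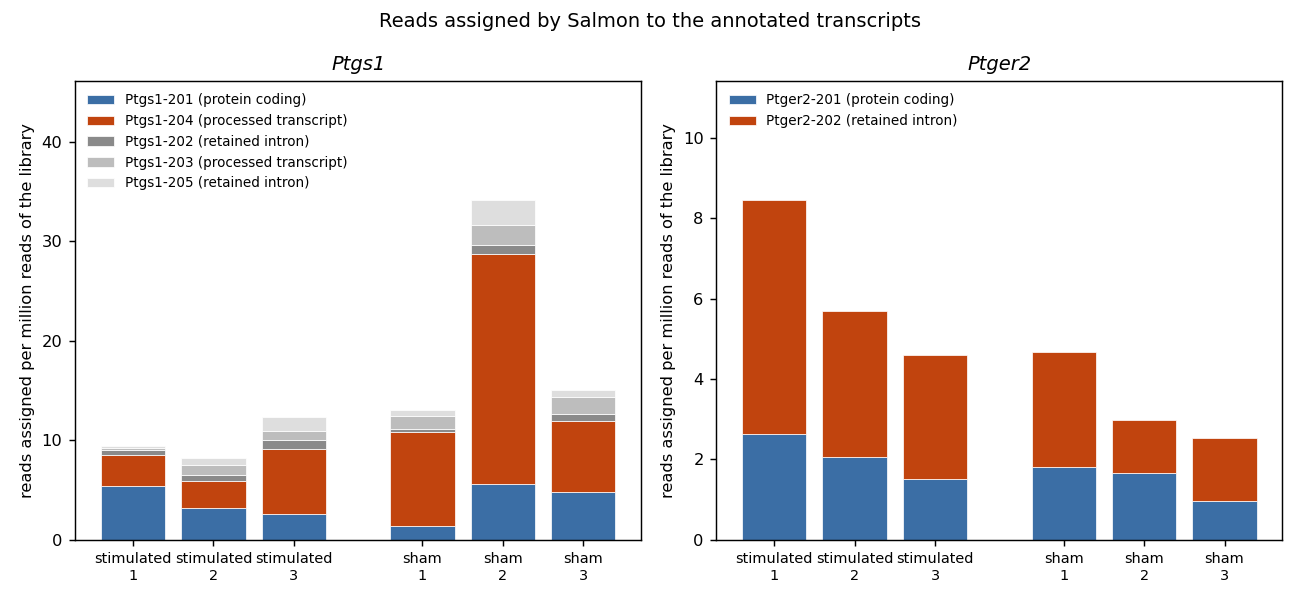
Estimated reads (RPM, linear axis from 0) that Salmon assigned to the annotated transcripts of Ptgs1 (left) and Ptger2 (right), in 3 stimulated and 3 sham libraries. Ptgs1-204 averaged 4.09 RPM after stimulation and 13.2 in sham libraries, while Ptgs1-201 averaged 3.74 and 3.91.

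The terminal synthases were expressed at low levels and gave no call. Ptges encodes the inducible microsomal PGE synthase (ENSMUSG00000050737.13, chromosome 2, 30889471 to 30929863). It had 2.73, 3.26 and 4.54 CPM in stimulated libraries and 5.27, 5.06 and 2.54 CPM in sham libraries. Sham replicate 3 was the lowest of all 6, and the log2 fold change was -0.29 (SE 0.39, 95% interval -1.18 to 0.60). Single libraries moved this value, which was -0.54 without sham replicate 3, -0.52 without stimulated replicate 3, -0.13 without sham replicate 2, -0.11 without sham replicate 1 and -0.09 without stimulated replicate 1. Ptgis encodes prostacyclin synthase, which endothelial and smooth muscle cells are known to use (ENSMUSG00000017969.13, chromosome 2, 167191805 to 167240604). It had 0.429, 1.74 and 2.18 CPM in stimulated libraries and 3.72, 2.17 and 2.1 CPM in sham libraries, with stimulated replicate 3 among the sham values. Its log2 fold change was -0.88 (SE 0.58, 95% interval -2.19 to 0.43), and -0.41 without stimulated replicate 1, the lowest library, which held 8.2 estimated counts of the gene. It was -0.56 without sham replicate 1, -0.59 from reads summed over transcripts and -0.42 on protein-coding transcripts only. Smooth muscle markers summed to 124 to 282 CPM in stimulated and 205 to 546 CPM in sham libraries, and their part was not tested. Ptgds encodes lipocalin-type PGD synthase (ENSMUSG00000015090.13, chromosome 2, 25466709 to 25470046). It held 1.2, 1.5 and 6.4 estimated counts in stimulated libraries and 4.8, 1.6 and 4.1 in sham libraries, did not pass the filter on low counts and was not tested.

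Ptger2 encodes EP2, a PGE2 receptor that raises cyclic AMP (ENSMUSG00000037759.6, chromosome 14, 44988195 to 45003820). It had 7.98, 5.94 and 4.86 CPM in stimulated libraries and 4.1, 2.75 and 2.96 CPM in sham libraries. All stimulated libraries lay above all sham libraries. The mean was 6.26 ± 1.58 CPM after stimulation and 3.27 ± 0.728 CPM in sham mice (SD, n = 3 each), a log2 fold change of 0.93 (SE 0.34, 95% interval 0.17 to 1.70). In edgeR's quasi-likelihood test the unadjusted p was 0.022 and the adjusted p = 0.64, and 6.16% of all tested genes were higher without overlap. Neutrophil markers separated the groups in the same direction, at 139 to 233 CPM in stimulated and 47.2 to 67.4 CPM in sham libraries. Lymphocyte markers, at 1570 to 2080 CPM and 251 to 2300 CPM, and myofibre markers, at 44.9 to 158 CPM and 26.7 to 47.3 CPM, were also all higher in log2 fold change, with overlapping sums. The part of these markers in the result was not tested.

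Most reads of Ptger2 were assigned to a transcript that keeps part of its intron. Ptger2-202 runs from exon 1 on into the first 1509 of the 11942 bases of intron 1, whereas the coding transcript Ptger2-201 joins exon 1 to exon 2. The sequences at the end of exon 1 show both forms, with exon 1 in lower case and the bases that follow it in capitals (chromosome 14, GRCm38, plus strand).
Ptger2-201: tccttgcctttcacaATCTTTGCCTACATG
Ptger2-202: tccttgcctttcacaGTAAGTCACCTTTGT
Ptger2-202 took 68.8, 63.7 and 67% of the gene's reads in stimulated libraries and 61.3, 44.5 and 61.8% in sham libraries. It held 4.18 ± 1.45 RPM in stimulated and 1.92 ± 0.834 in sham libraries, and the coding transcript 2.07 ± 0.56 and 1.47 ± 0.451 (SD, n = 3 each). On protein-coding transcripts only, the log2 fold change of Ptger2 was 0.61 (SE 0.44, edgeR adjusted p = 0.77), beside 0.92 (SE 0.33) from reads of both transcripts. Of the 31-base words of Ptger2-202, 57.6% are absent from Ptger2-201, so this split rests on more sequence than that of Ptgs1. The antisense gene Gm17173 spans all of Ptger2 on the other strand and stood at 1.34 to 1.7 CPM in stimulated and 0.195 to 1.01 CPM in sham libraries. The kit keeps strand, but the strand setting of the quantification is not given in the sources used here.

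Ptger4 encodes EP4, the other PGE2 receptor coupled to cyclic AMP (ENSMUSG00000039942.15, chromosome 15, 5206661 to 5244187). It had 49.3, 51.5 and 51.4 CPM in stimulated libraries and 48, 49.5 and 68.5 CPM in sham libraries. The stimulated libraries lay close together, with sham replicate 1 just below them, sham replicate 2 among them and sham replicate 3 above them. The log2 fold change was -0.13 (SE 0.23, 95% interval -0.66 to 0.41, edgeR adjusted p = 0.98). It was 0.07 without sham replicate 3. The 95% interval thus leaves room for a difference of up to 0.66 on the log2 scale. Its 2 coding transcripts took most of the reads, with 62, 40.6 and 45.6% on Ptger4-202 in stimulated libraries and 65.9, 40.3 and 48.5% in sham libraries. That split rests on even less sequence than that of Ptgs1, since 2.68% of the 31-base words of Ptger4-202 and 1.24% of those of Ptger4-201 are their own.

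Hpgd encodes 15-hydroxyprostaglandin dehydrogenase, which inactivates PGE2 and related prostaglandins (ENSMUSG00000031613.9, chromosome 8, 56294585 to 56321043). It had 2.74, 2.44 and 2.91 CPM in stimulated libraries and 5.2, 16.7 and 9.14 CPM in sham libraries. The stimulated libraries were nearly alike, every sham library was higher, and the sham libraries differed widely among themselves. The mean was 2.7 ± 0.237 CPM after stimulation and 10.4 ± 5.86 CPM in sham mice (SD, n = 3 each), a ratio of 0.26. The log2 fold change was -1.94 (SE 0.43, 95% interval -2.92 to -0.96). In edgeR's quasi-likelihood test the unadjusted p was 0.0016, the 90th smallest of 26559, and the adjusted p = 0.42, while 5.88% of all tested genes were lower without overlap.

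Reads summed over transcripts gave Hpgd a difference of similar size. Its only annotated transcript, coding and 1683 bases long, received 57, 45 and 72 reads in stimulated libraries and 122, 314 and 157 in sham libraries, and the fit on reads summed from transcripts gave a log2 fold change of -1.87 (SE 0.43). Over 15 alternatives the value ran from -2.26 to -1.41 with adjusted p from 0.0073 to 1. The call depended on the tool and the filter, since DESeq2 gave -1.90 (SE 0.46, adjusted p = 0.0073) and edgeR without a filter on low counts -1.87 (SE 0.40, adjusted p = 0.019). Without sham replicate 2, the library with the most Hpgd and the highest endothelial sum, edgeR gave -1.41 (SE 0.38, adjusted p = 0.78). The sham libraries had the same order by Hpgd as by the endothelial sum, at 3020, 7680 and 4530 CPM in sham replicates 1 to 3, and also as by the pericyte, smooth muscle, macrophage, fibro-adipogenic and platelet sums, so the order was not particular to endothelial markers. In stimulated replicates 1 to 3 the endothelial sum was 1810, 2000 and 2740 CPM. Hpgd had 2.74, 2.44 and 2.91 CPM there, values too close together to put in order. The part of these markers in the difference was not tested.

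The 250 bases before the RefSeq start of Hpgd are shown because Hpgd had the largest log2 fold change of the members (chr8:56294302-56294551, GRCm38.p6, plus strand, from RefSeq, whose table held 7 of the 8 members); capitals mark the motif matches found on either strand.
Hpgd: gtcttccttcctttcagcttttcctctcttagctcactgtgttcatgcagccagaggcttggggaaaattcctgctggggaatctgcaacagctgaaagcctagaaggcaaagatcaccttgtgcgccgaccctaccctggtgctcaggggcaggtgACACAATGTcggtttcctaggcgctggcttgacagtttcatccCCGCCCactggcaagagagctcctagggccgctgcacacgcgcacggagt
The window held a match to the glucocorticoid receptor letters ACANNNTGT 93 bases before the start, a motif present in 5.84% of 32851 RefSeq promoter windows of this length, and a GC box (GGGCGG) 50 bases before it, present in 32.7%. Searched on both strands and not found there were the CRE half-site TGACG (17.8% of windows), the E-box CACGTG (6.02%), the C/EBP letters TTGCNNAA (9.56%), the TATA box TATAAA (12.4%), the NF-kB site (0.356%) and the AP-1 letters TGANTCA (6.75%). These matches describe letters and not binding.

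**Figure D4:**
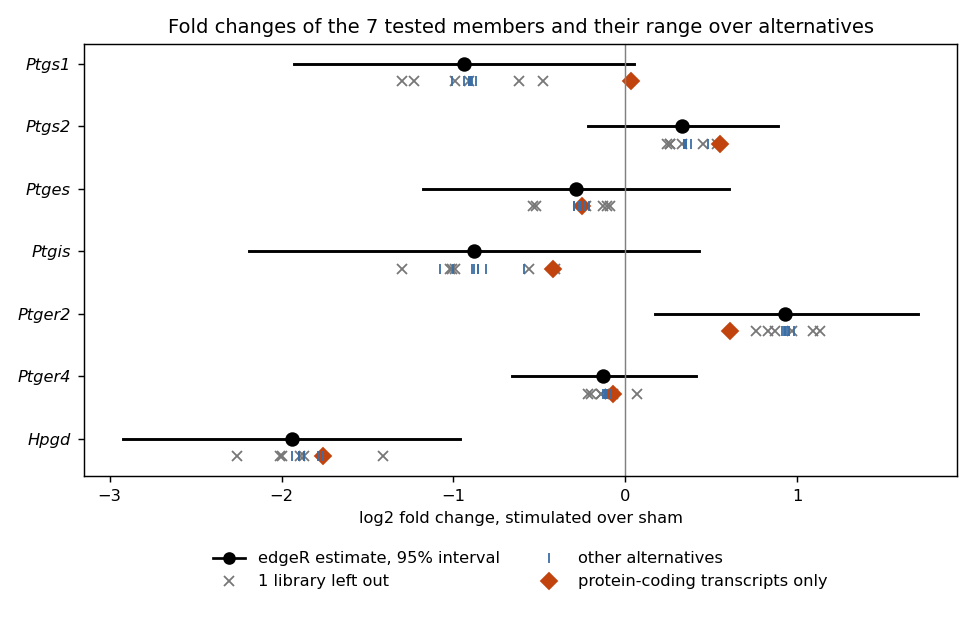
Log2 fold change of stimulated over sham for the 7 tested members, with the 95% interval (black) and, below each, the values with 1 library left out (crosses), under the other alternatives (ticks) and on protein-coding transcripts only (diamonds). Hpgd runs from -2.26 to -1.41 and Ptger2 from 0.61 to 1.13 over the alternatives, while Ptgs1 reaches 0.03 on coding transcripts and Ptger4 reaches 0.07 without sham replicate 3.

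The genes whose levels ran most like a member across the 6 libraries were taken by Pearson correlation of log2 CPM, among 9096 tested genes with a mean of at least 10 CPM, leaving out the members and clone-like symbols. For Hpgd they were Arhgef5 (r = 0.9979) and Mapk3 (r = 0.9965). For Ptgs1 they were Amotl2 (r = 0.9983) and Cavin3 (r = 0.9977), for Ptger2 Glrx (r = 0.9848) and Snhg17 (r = 0.9818), and for Ptgs2 Polr3b (r = 0.9949) and Znrf2 (r = 0.9901). These are the highest of 9096 values over 6 libraries that fall into the same 2 groups, and they are a description.

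Around the 8 members, 32 further genes of the prostaglandin pathway were listed, and 28 were tested. None passed edgeR's test at an adjusted p of 0.05, and 1 was called at an unadjusted p under 0.05, where 7.05% of all tested genes were. Of these 28 genes 21 had a log2 fold change below 0, beside 52% of all tested genes. The median log2 fold change was -0.19 for 7 phospholipase genes, -0.31 for 7 terminal synthase genes, -0.2 for 9 receptor genes and -0.27 for 5 transport and breakdown genes, beside -0.02 for all tested genes. These lists were chosen with earlier results of these data known.

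Among the phospholipase genes, Pla2g4c, a cytosolic phospholipase A2, had 0.499 to 1.14 CPM in stimulated and 1.16 to 2.83 CPM in sham libraries, a log2 fold change of -1.42 (SE 0.55, unadjusted p = 0.029 and adjusted p = 0.67 by edgeR). Pla2g2d, a secreted phospholipase A2, had -0.80 (SE 0.38), with 2.74 to 3.19 CPM against 3.7 to 8 CPM. Pla2g4a, the main enzyme that frees arachidonic acid for cyclooxygenases, averaged 7.19 ± 0.558 CPM in stimulated and 8.18 ± 2.88 CPM in sham libraries (SD, n = 3 each). It had the highest mean TPM of its list, 3.45, but 91.7% of that lay on a 247-base transcript that held 21.2% of its reads.

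Among the terminal synthases, Hpgds, the haematopoietic PGD synthase, had 6.66, 8.44 and 9.16 CPM in stimulated libraries and 19, 11.4 and 9.31 CPM in sham libraries, a log2 fold change of -0.71 (SE 0.33, edgeR adjusted p = 0.72). Tbxas1, thromboxane synthase, had 14.9 to 21.2 CPM against 21.4 to 37.2 CPM, a log2 fold change of -0.56 (SE 0.29). In both genes the groups did not overlap, and the nearest stimulated and sham libraries differed by under 1 CPM. Macrophage and monocyte markers, which belong to cells known to use both enzymes, summed to 473 to 720 CPM in stimulated and 350 to 1170 CPM in sham libraries. Mast cell markers summed to 160 to 268 CPM and 173 to 302 CPM. Both sums overlapped between groups, but 11 of 12 macrophage and 7 of 8 mast cell markers had lower values after stimulation. Their median log2 fold changes were -0.33 and -0.38, and their part was not tested. Ptges3, a cochaperone also described as a cytosolic PGE synthase, had the highest mean TPM of the list, 2.33, and 57.3 ± 13.7 CPM against 66.6 ± 4.62 CPM (SD, n = 3 each).

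Among the receptors, Ptgfr, the receptor of PGF, had 1.18, 1.33 and 1.97 CPM in stimulated libraries and 1.42, 4.22 and 3.93 CPM in sham libraries, a log2 fold change of -1.07 (SE 0.49, edgeR adjusted p = 0.71). The prostacyclin receptor gene Ptgir and the thromboxane receptor gene Tbxa2r had positive values, 0.37 (SE 0.36) and 0.29 (SE 0.34), with overlapping groups. Pparg, a nuclear receptor that some prostaglandin derivatives bind, had the highest mean TPM of the list, 1.88, of which 48.2% lay on a 213-base transcript. Of the genes for uptake and breakdown, Ptgr2, a prostaglandin reductase, had the highest mean TPM, 0.718, and 15.2 ± 3.01 CPM in stimulated and 14.1 ± 3.12 CPM in sham libraries (SD, n = 3 each). The transporter gene Slco2a1, whose product carries prostaglandins into cells for oxidation by the Hpgd enzyme, had a log2 fold change of 0.04 (SE 0.32), with 23.9 to 26.9 CPM in stimulated and 17.3 to 37.3 CPM in sham libraries.

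**Figure D5:**
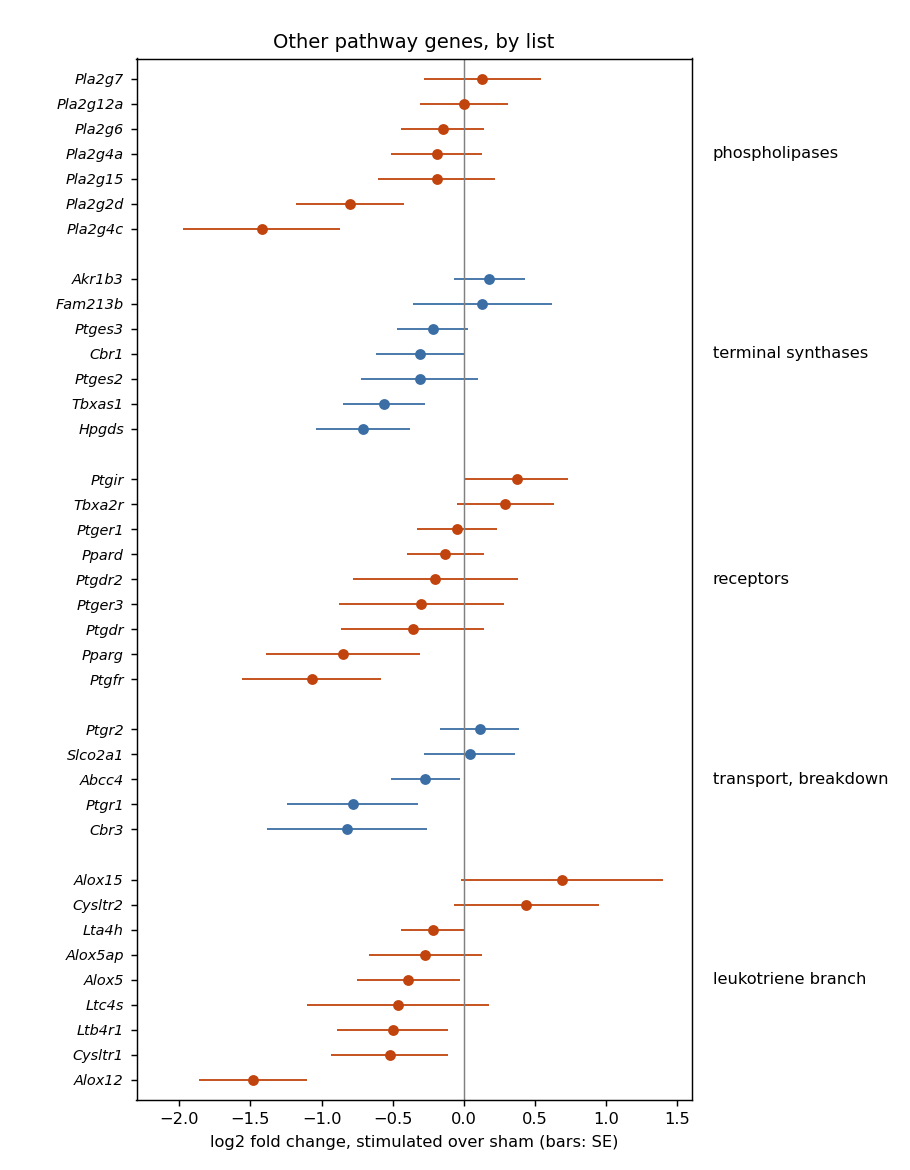
Log2 fold change of stimulated over sham (points) with its SE (bars) for the tested genes of the pathway lists. The list marked leukotriene branch holds lipoxygenase and leukotriene genes. Pla2g4c at -1.42 and Alox12 at -1.48 lie lowest, and the receptor genes Ptgir and Tbxa2r lie at 0.37 and 0.29.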

How the data were processed

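Total RNA of 6 sorted samples was sequenced after a stranded low-input library kit, per the labels' protocols. Salmon 0.8.2, Trimmomatic 0.36, edgeR and the build GRCm38 appear in the submitters' processing notes, without order or settings. The authors deposited a gene table of expected (estimated) counts and, per the file headers, transcript tables of TPM, estimated counts and lengths. In 14096 genes with over 0.1 TPM in every library, gene counts followed TPM times a gene and a library factor within 1% in 100%, so they are not read sums.

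Here, gene counts were rounded, filtered with filterByExpr (minimum count 10, total 15; 26559 genes kept), scaled by TMM and tested with edgeR 4.0.16's robust quasi-likelihood F test in R 4.3.3, stimulated against sham, with no other term and Benjamini-Hochberg adjustment at 0.05. The SE is the log2 fold change over the square root of F. Exact permutation of 3 against 3 cannot give a two-sided p below 0.1 and was not used. The members and lists were chosen with earlier results of these data known. Named pathway genes are the 6 with the smallest p and the highest TPM of each list; Ptgir, Tbxa2r, Slco2a1, Ptgs2os and Gm17173 were chosen after their values were seen. Alternatives were DESeq2 1.42.0, limma voom 3.58.1, RLE factors, other filters, leaving out 1 library at a time, a block for the replicate number, summed transcript reads and mitochondrial genes left out; coding transcripts only was added later. The tests were tried on simulated counts with less spread between replicates than these data. That trial thus does not show how often the tests miss changes here. Replicates differed far beyond sampling noise (chi-square per gene 30.4 to 112). The labels state 3 mice a group. Coordinates are from GENCODE M21.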

Additional observations from a re-analysis of the deposited data

How the results depend on the processing

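The number of genes past the threshold, 0 by edgeR, was 227 with DESeq2 (74 higher and 153 lower), 3 with RLE size factors, 109 without a filter, 1 from summed transcript reads, 1 on coding transcripts only and 3 at an adjusted p of 0.1, and 0 to 1 when a library was left out, the 1 arising without stimulated replicate 3. The number of members past it, 0, was 1 with DESeq2 and 1 without a filter, in both cases Hpgd, at log2 fold changes of -1.90 and -1.87. For pathway genes, 0, it was 1 with DESeq2, Alox12. Ptger4 ran from -0.22 to 0.07 with 1 library left out. Signs turned for Ptgs1 on coding transcripts only (0.03) and for Ptger4 without sham replicate 3 (0.07), and in no other of the member values; the cause was not tested. With 1 library left out, Hpgd ran from -2.26 to -1.41, Ptger2 from 0.76 to 1.13, Ptgs1 from -1.30 to -0.48, Ptgs2 from 0.24 to 0.53, Ptges from -0.54 to -0.09 and Ptgis from -1.30 to -0.41. Same-numbered libraries did not deviate together in all pairs (correlations 0.32, -0.16 and 0.13), and pairs of unlike number ran from -0.33 to 0.23. So few libraries cannot show whether the numbers mark pairs, and here the number is used as a name. With the replicate number as a block Hpgd had -1.79, Ptger2 0.93 and Ptgs1 -0.91, with 0 members past the threshold. Counts down to 8.2 for Ptgis, 49.7 for Hpgd and 1.2 for Ptgds in a library limit what these libraries can show.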

Other observations

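A neighbouring list of lipoxygenase and leukotriene genes held 9 genes, all tested. Lipoxygenases use arachidonic acid in place of cyclooxygenases. None of the 9 genes passed edgeR's test at an adjusted p of 0.05, and 7 had a log2 fold change below 0, with a median of -0.39 beside -0.02 for all tested genes. Alox12, a lipoxygenase known from platelets, had 2.61, 3.9 and 3.89 CPM in the stimulated and 7.67, 14.5 and 6.91 CPM in the sham libraries, with no overlap of the groups. Its log2 fold change was -1.48 (SE 0.38, unadjusted p = 0.0034 and adjusted p = 0.47 by edgeR), and over the alternatives it ran from -1.66 to -1.06, the last without sham replicate 2. DESeq2 gave an adjusted p of 0.041. Platelet markers summed to 24.6 to 35.8 CPM in stimulated and 20.6 to 55.7 CPM in sham libraries, with 5 of 6 tested markers lower. Endothelial markers summed to 1810 to 2740 CPM and 3020 to 7680 CPM. The part of both lists was not tested. Alox5ap, the partner protein of 5-lipoxygenase, had the highest mean TPM of the list, 2.73, with Lta4h close at 2.69. Of the Alox5ap TPM 53.3% lay on a 452-base transcript that held 40.2% of its reads. Alox5ap had 13.1 ± 4.83 CPM in stimulated and 15.8 ± 7.1 CPM in sham libraries (SD, n = 3 each).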
